A study of Mus musculus with 2 samples.

Results

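The erythroid maturation microRNAs described here are 5 genes chosen by their known roles in red cell maturation, of 1973 microRNA genes counted: Mir451a, Mir144, Mir486, Mir425 and Mir191. Their levels were measured by small RNA sequencing of whole embryonic mouse liver, strain B6NCrl, at 13.5 days, with male and female embryos pooled. There was 1 group of 2 libraries, labelled as biological replicates 1 and 2 and made from separate biosamples of healthy tissue that trace to 1 donor record. No treatment, mutation or second tissue was included, so the comparisons possible are those between the genes and between the 2 libraries. RNA below 30 bases was sequenced, per the labels.

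The liver at this age is the main place where the embryo makes red cells, and most of its erythroid precursors are still nucleated and dividing. Mir144 and Mir451a are processed from a single transcript that the erythroid transcription factor GATA1 switches on, and miR-451a is known as one of the most abundant microRNAs of red cells, where it protects against oxidative stress. Mir486 lies in Ank1, the gene of a red cell membrane skeleton protein. Mir191 and Mir425 are also made together. miR-191 is known to fall late in red cell maturation, when the nucleus is condensed and expelled.

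Mature sequences of Mir451a, Mir144, Mir191 and Mir425 were taken from RefSeq (GRCm38.p6), which matched 4 of the 5 genes. They are shown because the seed, bases 2 to 8 from the 5′ end, decides most of the targets of a microRNA, and because the comparisons below are made between these partners. The seed is in capitals.
miR-451a: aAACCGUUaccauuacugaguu
miR-144-5p: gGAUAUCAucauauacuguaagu
miR-144-3p: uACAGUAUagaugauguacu
miR-191-5p: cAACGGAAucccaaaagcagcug
miR-191-3p: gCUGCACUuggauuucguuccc
miR-425-5p: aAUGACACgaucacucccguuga
miR-425-3p: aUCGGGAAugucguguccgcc

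The 7 mature sequences had 7 different seeds, so neither transcript carries a pair of microRNAs with a shared seed. Of 1679 mature names in the RefSeq table, miR-489-3p alone shared the seed of any of the 7, that of miR-425-5p, and Mir489 had a count of 0 in both libraries. With bases 2 to 7 only, miR-144-3p also matched miR-101a-3p, whose gene Mir101a stood at 79.5 ± 6.61 CPM (SD, n = 2), where CPM is counts scaled to a total of 1000000 per library. Across the table, 72.1% of names had a seed of their own.

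The hairpins of the first pair show how differently the partners are built, with the mature part in capitals.
Mir451a hairpin: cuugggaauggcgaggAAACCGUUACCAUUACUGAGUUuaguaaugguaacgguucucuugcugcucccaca
Mir144 hairpin: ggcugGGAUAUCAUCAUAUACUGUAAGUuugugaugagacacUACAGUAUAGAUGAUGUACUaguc

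In the predicted fold of the 72-base Mir451a hairpin, the terminal loop spans bases 35 to 38, and miR-451a spans bases 17 to 38, over the whole loop. miR-451a is known to be cut by Argonaute 2 rather than by Dicer, which needs a longer stem. In Mir144, Mir191 and Mir425 the loop lies between the 2 mature arms and is covered by neither. Of 938 hairpins with a single predicted loop and a listed mature sequence, 2 (0.213%) had a mature sequence over the whole loop, Mir451a and Mir468. The map of the hairpins shows these positions.

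**Figure D1:**
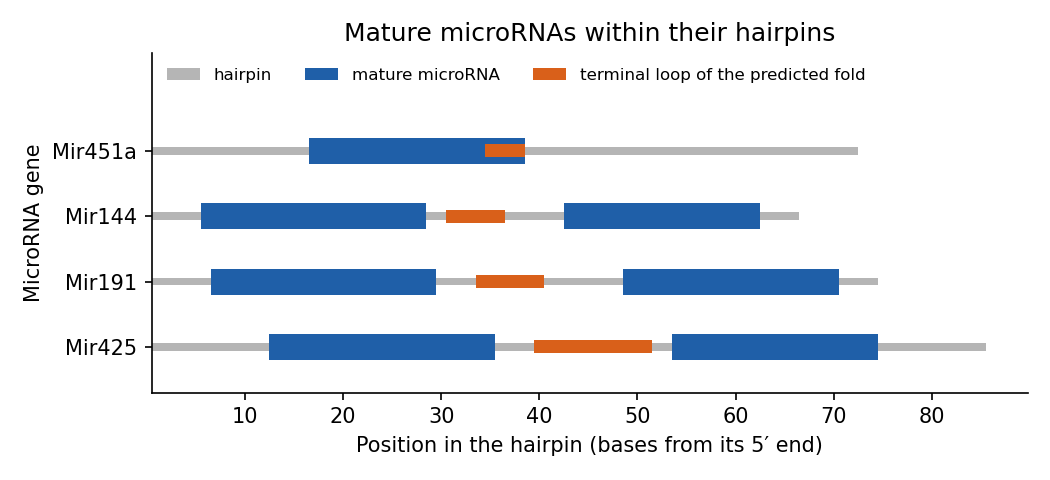
Positions of the mature microRNAs (blue) and of the terminal loop of the predicted fold (orange) in 4 hairpins (grey), in bases from the 5′ end of each hairpin. The mature part of Mir451a, bases 17 to 38, covers its loop, and the other 3 hairpins carry 1 mature arm on each side of theirs.

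On mm10, Mir144 lies on chromosome 11 at 78073005 to 78073070 and Mir451a at 78073170 to 78073241, both on the plus strand with 99 bases between them and with no host gene in GENCODE M21. Mir451b is annotated over the same bases as Mir451a on the minus strand. Mir191 lies on chromosome 9 at 108568319 to 108568392 and Mir425 at 108568777 to 108568861, with 384 bases between them. Both are on the plus strand inside the long non-coding gene 4833445I07Rik, and each lies in an exon of 1 of its 2 transcripts. Mir486 lies on chromosome 8 at 23142555 to 23142682 on the plus strand, inside 15 of the 17 transcripts of Ank1 and in an exon of none.

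Mir191 has no row of its own in the deposited counts. Its reads were taken from the row Gm24083, a gene annotated over it on the minus strand (108568295 to 108568414), by the counts on the opposite strand. That row held 18545 and 31134 counts opposite to Gm24083 and 0 on its own strand in both libraries.

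The libraries held 2625948 and 4317876 such counts. Detected genes, with at least 10 counts in each, numbered 368, and all 5 members were among them. Levels are given in CPM and need no scaling by length, since 1 read stands for 1 small RNA. Capture of different small RNAs during library preparation can differ, which was not tested, so an order of levels is an order of counts. Reads on several places of the genome, 36.7% and 32.0% of all reads, enter no gene. The 2 arms of a hairpin are counted together. Levels in a bulk tissue do not tell fewer cells of a type from less RNA per cell.

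Mir451a, the best known red cell microRNA, stood at 10674 CPM in replicate 1 (95% Poisson interval 10549 to 10799.6) and 26152 CPM in replicate 2 (26000.1 to 26305). Its place among all genes was 25 in replicate 1 and 9 in replicate 2. Save at the Mir191 locus, reads on the strand opposite a row had no place in this order. The mean of Mir451a was 18413 ± 10945 CPM (SD, n = 2), a coefficient of variation of 59.4%. Replicate 2 was the high library, far outside the counting error of replicate 1.

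Mir144, its partner in the transcript, stood at 6360.0 CPM in replicate 1 and 5830.4 CPM in replicate 2, with a mean of 6095 ± 374 CPM. Here replicate 1 was the higher library, opposite to Mir451a.

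Mir486, the microRNA in Ank1, stood at 828 CPM (793 to 863) in replicate 1 and 814 CPM (787 to 841) in replicate 2. Its mean was 821 ± 10.1 CPM and its intervals overlapped. By these counts it was the least abundant of the 5 and took place 107 by mean. Mir3107 is annotated over it on the minus strand. Whether reads of Mir486 also match the minus strand here or other places was not checked. Such reads would enter no gene, so its level and its last place may be too low.

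The Mir191 locus stood at 7062 CPM in replicate 1 and 7210.5 CPM in replicate 2, with a mean of 7136 ± 105 CPM. Mir425 stood at 3742 CPM in replicate 1 and 5059 CPM in replicate 2, with a mean of 4400.1 ± 931 CPM. The libraries were close for the first and apart for the second, with replicate 2 higher.

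**Figure D2:**
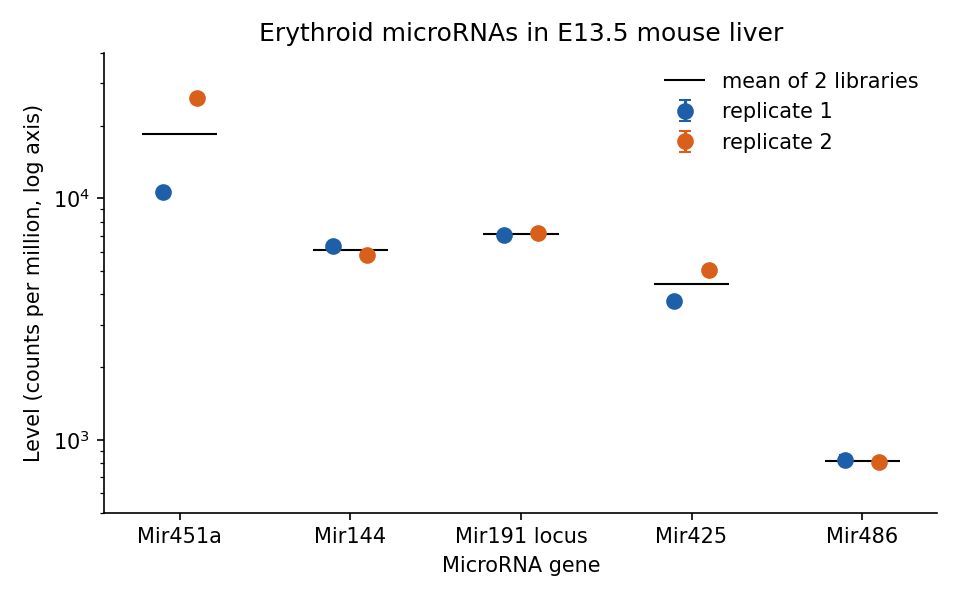
Level of each microRNA gene in CPM (log axis) in replicate 1 (blue) and replicate 2 (orange). Bars are 95% Poisson intervals, mostly smaller than the points, and black lines are means of the 2 libraries. Mir451a is at 10674 and 26152 CPM, while Mir144, the Mir191 locus and Mir486 lie close together between the libraries.

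The order Mir451a, Mir191, Mir144, Mir425, Mir486 held in both libraries. The step from Mir451a to Mir191 was 1.51-fold in replicate 1 and 3.63-fold in replicate 2, and its mean of 11277 CPM was close to the SD of Mir451a, 10945 CPM. Mir191 exceeded Mir144 by 1.11-fold and 1.24-fold, and Mir144 exceeded Mir425 by 1.70-fold and 1.15-fold. These middle steps of 1041 and 1695 CPM were above the larger SD of the 2 genes, 374 and 931 CPM. Mir425 exceeded Mir486 by 4.52-fold and 6.22-fold, steps that may be too large, as the level of Mir486 may be too low. The smallest two-sided p that an exact test over 2 libraries allows is 0.5, so these steps carry no p.

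The genes nearest in mean level give a scale for these values. They were Mir30e (18537 CPM) and Mir93 (18129 CPM) for Mir451a, Mir130b (6132 CPM) and Mir16-1 (6211 CPM) for Mir144, and Mir23b (7353 CPM) and Mir18 (7857 CPM) for Mir191. For Mir425 they were Mir296 (4165 CPM) and Mir1193 (4689.9 CPM), and for Mir486 they were Mir455 (806 CPM) and Mir339 (854 CPM). The SD of Mir30e, 1433 CPM, and of Mir93, 2001 CPM, were well below that of Mir451a at a like level.

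Together the 5 genes took 2.87% of counts in replicate 1 and 4.51% in replicate 2. Mir451a made up 37.2% and 58.0% of that sum. The other 4 alone, a sum added after the values were seen, took 1.80% and 1.89%, so the difference of the sum between the libraries lay almost wholly in 1 gene.

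The 2 libraries were next compared gene by gene. A two-sided exact binomial test set the split of a gene's counts against that of the library sizes. Its p-values were adjusted by Benjamini-Hochberg over the 712 genes with a count. It covers counting error only, and it compares these libraries, not conditions. Of the 5 genes, 3 were called, Mir451a and Mir425 as higher and Mir144 as lower in replicate 2. The background is 20.1% of all 712 genes, and 71.2% of the 111 genes with at least 5000 counts, which all 5 members have, so a count of 3 of 5 does not set these genes apart from others of their depth.

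The sizes differed more than the calls. Mir451a was 2.45-fold higher in replicate 2, a log2 difference of 1.29 (95% counting interval 1.27 to 1.31), with a p too small for the software to represent. Among the 100 detected genes with a mean of at least 1000 CPM this was the largest difference in either direction, and the next was 0.55, for Mir541. The median absolute difference over these 100 genes was 0.096. Over all 368 detected genes, 7 had a larger one.

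Mir425 was 1.35-fold higher in replicate 2, a log2 difference of 0.44 (0.40 to 0.47, adjusted p = 6.04e-139, exact binomial test). Of the 100 genes above 1000 CPM, 4 had a larger difference. Mir144 was lower in replicate 2, by 1.09-fold, with a log2 difference of -0.13 (-0.15 to -0.097, adjusted p = 7.05e-17, exact binomial test), and 36 of those 100 genes differed more. The log2 differences of the Mir191 locus and of Mir486, 0.030 and -0.025, did not pass the test (adjusted p = 0.107 and 0.741, exact binomial test).

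An exact negative binomial test in edgeR added the spread between libraries to the counting error, with a biological coefficient of variation of 13.3% fitted over all genes by treating the libraries as replicates. It called 3 of 712 genes (0.421%), of which Mir451a was 1 (adjusted p = 0.0013, edgeR exact test). The other 2 were Mir181b-2, higher by 1.16 in log2, and Mir92b, lower at -1.37, at 275 and 122 CPM. Mir144, the Mir191 locus, Mir425 and Mir486 each had an adjusted p of 1 in that test. The test sets 1 library against 1, and its spread was fitted from the same 2 libraries, so it is a description of these libraries with no independent replicate behind it. Among the 111 genes with at least 5000 counts it was the 1 gene called (0.901%), and it was 1 of 2 called as higher in replicate 2 over all genes (0.281%).

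**Figure D3:**
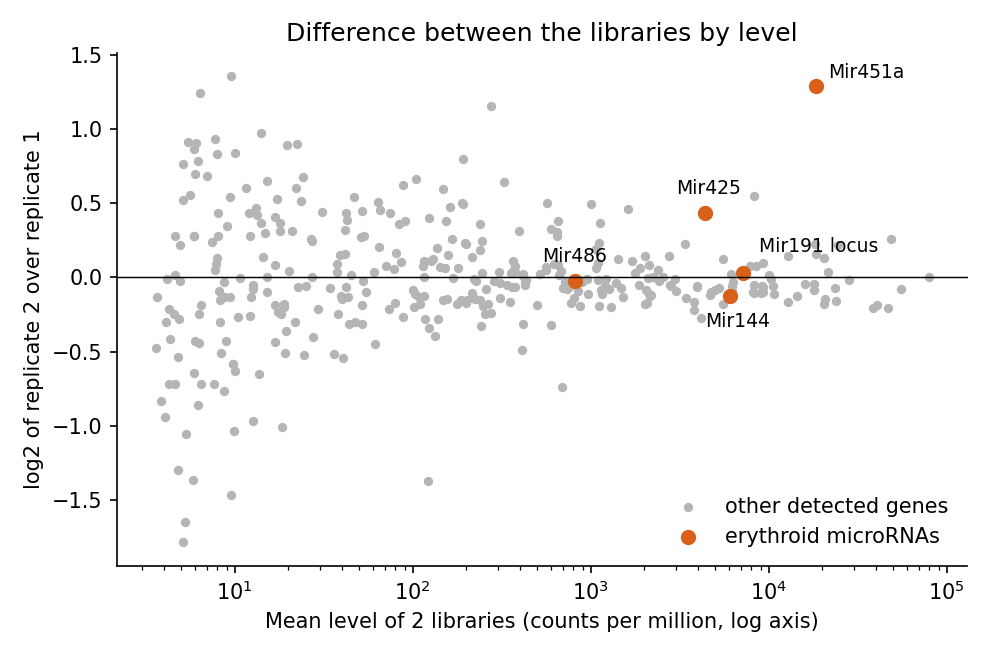
Log2 of replicate 2 over replicate 1 against the mean level in CPM (log axis) for 368 detected genes, with the 5 erythroid microRNAs in orange. Mir451a, at 1.29, lies apart from all other genes above 1000 CPM, and Mir425 lies at 0.44.

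Partners of a transcript were compared through the ratio of their counts, which does not depend on the total. Mir451a exceeded Mir144 by 1.68-fold in replicate 1 (95% interval 1.65 to 1.71, exact binomial) and by 4.49-fold in replicate 2 (4.42 to 4.55). Mir451a was the more abundant in both libraries, but by very different factors. The mean log2 ratio was 1.46 ± 1.00 (SD, n = 2). The log2 ratio was higher in replicate 2 by 1.42 (1.38 to 1.45), or 2.67-fold, with a p from Fisher's exact test too small to represent.

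Mir191 exceeded Mir425 by 1.89-fold in replicate 1 (1.84 to 1.93) and by 1.43-fold in replicate 2 (1.40 to 1.45). The mean log2 ratio was 0.71 ± 0.29. Here the ratio was the lower in replicate 2, with a log2 difference of -0.41 (-0.45 to -0.36, adjusted p = 1.57e-74, Fisher's exact test). The upstream gene was the more abundant in this pair and the downstream gene in the other, in both libraries.

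These pairs were 2 of 115 pairs of detected direct neighbours on the same strand within 10 kb, over which p-values were adjusted. The test called 38.3% of all pairs, and 69.4% of the 36 pairs in which each gene had at least 1000 counts in each library. A call alone is thus common at this depth, and the size is what differed. The median absolute difference between the libraries in the log2 ratio was 0.23 over all pairs and 0.14 over the 36. That of Mir451a and Mir144 was the largest of the 36, followed by Mir377 and Mir541 at 0.62, and 4 of the 36 differed more than Mir191 and Mir425. Over all 115 pairs only Mir181a-1 with Mir181b-1 differed more than Mir451a with Mir144, at 1.68, on 14 and 59 counts of Mir181b-1. The 2 erythroid pairs were also close in level for neighbours: the median absolute log2 ratio was 3.22, and 84 and 102 of the 115 pairs had a larger one.

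**Figure D4:**
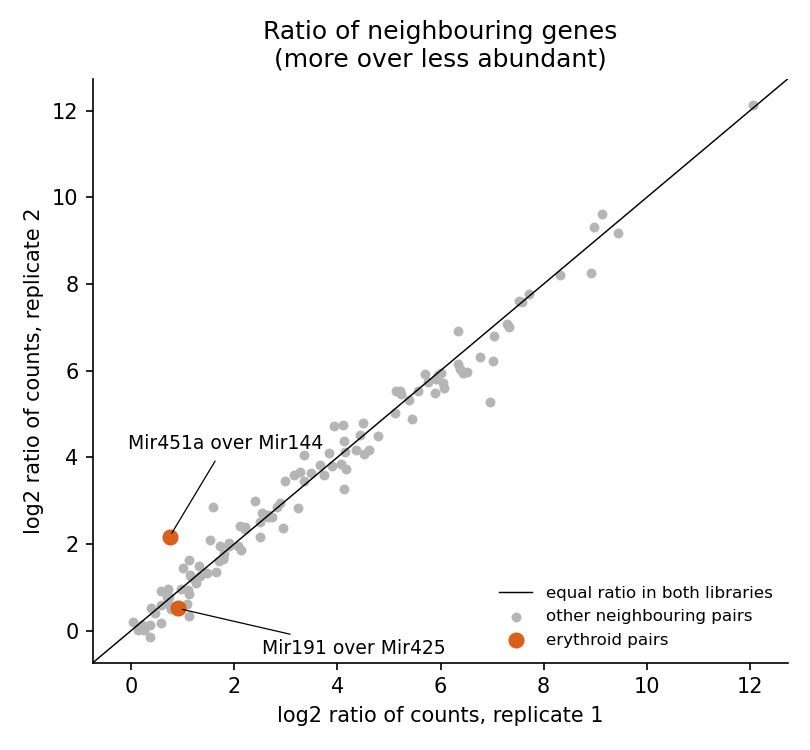
Log2 ratio of the counts of neighbouring genes, the more over the less abundant, in replicate 1 and replicate 2 for 115 pairs. The line marks equal ratios. Mir451a over Mir144 lies at 0.75 and 2.17, above the line, and Mir191 over Mir425 at 0.92 and 0.51, just below it.

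Among the detected genes of 2 lists of other microRNAs linked to red cell formation, the log2 differences between the libraries ran from -0.40 to 0.64, against 1.29 for Mir451a. Of 14 genes listed as rising in maturation, all were detected. The exact binomial test called 3 as higher in replicate 2, Mir182, Mir16-2 and Mir15a, and 5 as lower, Mir22, Mir210, Mir15b, Mir23a and Mir16-1, against a background of 8.57% higher and 11.5% lower over all genes. Of these 14 genes, 7 had at least 5000 counts, where the background is 71.2%, and all 7 were called, with 1 of the other 7. With TMM or DESeq2 library sizes 3 were called as higher and 3 as lower, as Mir22 and Mir16-1 lost their calls, and over all genes the calls turned from 61 higher and 82 lower to 71 and 65. The median log2 difference of the list was -0.057, beside -0.029 over all detected genes. The edgeR test called none of them.

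In this list Mir23a led at 12868 ± 1049 CPM (SD, n = 2), followed by Mir22 at 10609 ± 283 CPM and by Mir15a at 8511 ± 321 CPM and Mir16-1 at 6211 ± 182 CPM. The last 2 share a transcript and oppose the cell cycle. Mir210, induced by low oxygen, stood at 868 ± 80.4 CPM and Mir182 at 327 ± 102 CPM, with the largest difference of the list, 0.64 in log2. Mir15b stood at 3034 CPM and its partner Mir16-2 at 1070.4 CPM. The other 6, Mir183, Mir92-2, Mir27a, Mir24-2, Mir363 and Mir96, ranged from 136 to 307 CPM. Mir16-1 and Mir16-2 yield the same mature microRNA, as do Mir24-1 and Mir24-2, so the split of their reads and their counts are uncertain. Mir24-2 is listed as rising and Mir24-1 as falling, so the 2 lists conflict there. Whether Mir92-2, Mir103-1, Mir103-2, Mir181b-1 and Mir181b-2 share mature sequences with other genes was not checked. Their counts may be too low for the same reason.

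Of 10 genes listed as falling in maturation, 9 were counted and 8 detected, and Mir24-1 was not analysed here. The binomial test called 3 as higher in replicate 2, Mir155, Mir103-1 and Mir103-2, and 1 as lower, Mir126a, beside 20.1% of all genes called in either direction, and the edgeR test called none. Of the 3 genes with at least 5000 counts, 1 was called, against 71.2% of all such genes. With TMM or DESeq2 sizes Mir223 was also called as higher. Mir126a stood at 55624 ± 2082 CPM, Mir223 at 10020 ± 98.6 CPM and Mir107 at 1877 ± 46.5 CPM. Mir221 and Mir222, which lower the growth factor receptor Kit in erythroid progenitors, stood at 435 ± 4.15 and 257 ± 9.42 CPM. Mir155 stood at 161 ± 37.3 CPM, Mir103-2 at 90.7 ± 16.8 CPM and Mir150 at 27.4 ± 5.38 CPM. Mir103-1 had 5 and 30 counts, under the detection limit in replicate 1, and a larger log2 difference than Mir451a, 1.87. The median log2 difference of the detected genes was -0.035.

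**Figure D5:**
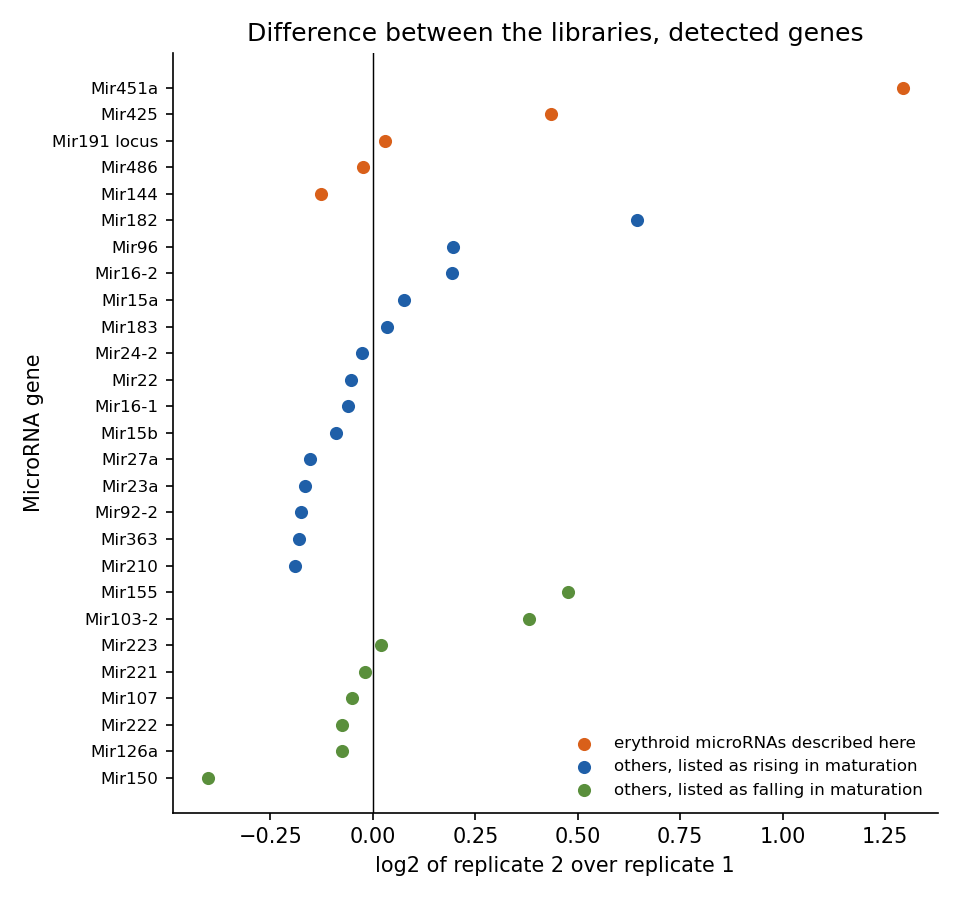
Log2 of replicate 2 over replicate 1 for the 5 erythroid microRNAs (orange) and for detected genes of the lists of others rising (blue) or falling (green) in red cell maturation. Mir451a, at 1.29, is the farthest right, and Mir182, at 0.64, is the next.

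Marker microRNAs of other cell types were summed in each library, to see what moved with Mir451a. Mir126a, Mir221, Mir222, Mir223, Mir155 and Mir150 are among these markers and also in the list falling in maturation. That list and these marker lists are therefore not separate measures. The hepatocyte list (5 of 5 genes detected, led by Mir122) summed to 83978 CPM (replicate 1) and 84772 CPM (replicate 2), and the endothelial list (3 of 3) to 57798 and 54834 CPM. Mir223, the myeloid marker, stood at 9950.3 and 10089.7 CPM, and the mesenchymal list (5 of 6) summed to 24649 and 23687 CPM. These sums and Mir223 differed by at most 1.05-fold between the libraries, against 2.45-fold for Mir451a. Each sum was mostly 1 gene, with means of 79424 CPM for Mir122, 55624 CPM for Mir126a and 17902.5 CPM for Mir143. The sums thus say little about the other genes of a list. In the hepatocyte list, Mir192 and Mir194-2 were called as higher in replicate 2, by 1.10-fold and 1.18-fold. Whether Mir194-1 and Mir194-2, or the Mir199a and Mir128 genes of these lists, share mature sequences was not checked. Their counts may thus be too low. The megakaryocyte and platelet list (3 of 3 counted, with Mir146a not analysed) summed to 91255 and 87329 CPM. It shares Mir126a and Mir223 with the lists above, and its other gene, Mir21a, stood at 24208 and 23087 CPM. Mir126a and Mir21a were called as lower in replicate 2. The epithelial list (6 of 6) stood higher in replicate 2, at 4524 against 3957 CPM. In the lymphoid and pan-leukocyte list (5 of 6 counted, with Mir142 in no row of its own), Mir342, Mir155 and Mir181b-1 were called as higher in replicate 2 and Mir181a-1 as lower, and the sum was 2204 and 2646 CPM. The counts opposite to Mir142b, where Mir142 lies, came to 46660 and 45068 per 1000000 counts used, and with them the sum was the lower in replicate 2, at 47715 against 48864. The striated muscle list (5 of 8 counted) summed to 1222 and 853 CPM, mostly from Mir206 (865 and 519 CPM). Mir206, Mir499 and Mir133b were called as lower and Mir208a and Mir208b as higher in replicate 2, and Mir133a-1 and Mir133a-2 were at 0. The neural list (2 of 7 counted) summed to 195 and 154 CPM, with Mir9-2 and the 3 Mir124a genes at 0. Genes at 0 here have copies, so a count of 0 does not limit their level. By the exact binomial test, other lists held calls too: 5 epithelial genes higher in replicate 2, and 1 endothelial and 1 neural gene lower. Of the mesenchymal genes, 1 was called as higher and 2 as lower. The background is 20.1% of all 712 genes, and 71.2% of the genes with at least 5000 counts. The part of these cell types in the difference of Mir451a was not tested.

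Of 236 other detected genes with at least 100 counts in each library, those with the differences nearest to that of Mir451a were Mir181b-2 at 1.16, Gm23935 at 0.80 and Mir669c at 0.66 in log2, a likeness over 2 libraries only. Their means were 275, 191 and 104 CPM, far below that of Mir451a.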

How the data were processed

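Each deposited table gives raw counts of reads in genes for 1 library, on mm10 with GENCODE M4 per the file headers of the deposited lists. No aligner or counting program is named (not given in the sources used here). Names and positions came from GENCODE M21, which matched 1894 of 1973 genes. Column 3, the gene's own strand, was used, and for Gm24083 column 4, the opposite strand. CPM is counts divided by the sum of counts used, times 1000000. A count of 0 would allow up to 3 counts, or 1.14 and 0.695 CPM. Intervals cover counting error only. The binomial and Fisher p-values also cover counting error only, and the edgeR test alone adds the spread between these 2 libraries. Nothing says that the 2 biosamples are separate litters, so no p-value covers the spread between litters. Reads on several places, unmapped reads (19.6% and 24.2%) and reads outside genes (5.72% and 5.64%) were left out of totals.

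The libraries were compared by two-sided exact binomial tests and pairs of neighbours by two-sided Fisher's exact tests, both with Benjamini-Hochberg adjustment and a threshold of 0.05. Intervals of a difference of log2 ratios are normal approximations. edgeR 4.0.16 gave TMM library sizes and an exact negative binomial test, and DESeq2 1.42.0 gave size factors. The tests were tested on simulated data, drawn with counting error alone for the binomial and Fisher tests and with the fitted spread for edgeR. That cannot show how the binomial and Fisher tests behave where libraries differ by more than counting error. Hairpins were folded with RNAfold 2.7.2, and other steps used Python 3.11.15 and scipy 1.17.1.

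The text names all 5 members, the genes of 2 lists of other erythroid microRNAs, the 2 genes nearest each member in level and the 3 nearest Mir451a in difference. The members and lists were chosen with earlier results of these data known, and the spread over genes above 1000 CPM or 5000 counts, the list calls by depth and library size, and the counts at Mir142 were added after seeing the values. Alternatives were other scalings, both strands, other detection limits and distances, and each library alone.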

Additional observations from a re-analysis of the deposited data

Results flagged for a closer look

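A signal lay in counts that the comparisons did not use, on the strand opposite Mir486. There were 234 such counts in replicate 1 and 422 in replicate 2, beside 2174 and 3513 on the strand of the gene, above the 3 that a count of 0 allows. They made up 9.72% of the counts of the locus in replicate 1 (95% exact interval 8.56% to 11.0%) and 10.7% in replicate 2 (9.77% to 11.7%). GENCODE M21 places Mir3107 and the longer antisense gene Gm15816 on that strand, and neither is analysed here. Among 377 genes with at least 10 counts on both strands together in each library, 324 had no count on the opposite strand, and 8 had 10 or more on each strand in each library. Mir451a, which Mir451b overlaps on the other strand, had 4 and 0 opposite counts, and Mir144 and Mir425 had none. miR-451a differs by 4 mismatches from the best match on the opposite strand of its own hairpin and by 6 from any other hairpin of the table. The source of the reads opposite Mir486 was not tested.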

How the results depend on the processing

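Of 5 differences between libraries, those of Mir451a, Mir144 and Mir425 kept their direction and call under the 5 other library sizes tried and with both strands counted. With the edgeR exact test Mir144 (-0.13) and Mir425 (0.44) were no longer called, and 3 genes in place of 143 were called over all genes, since that test adds the spread between libraries. The Mir191 locus became called with TMM sizes (0.057), DESeq2 size factors (0.057) and a total without the 5 members (0.055). The difference of Mir486, at -0.025, turned to 0.0015 with TMM and 0.0020 with DESeq2, never called. The summed share of the 5 genes, 3.69%, ran from 2.87% to 4.51% with 1 library left out, and was 1.85% without Mir451a. The log2 ratio of Mir451a over Mir144 ran from 0.75 to 2.17 with 1 library left out, and that of Mir191 over Mir425 from 0.51 to 0.92. With neighbours within 1 kb, 23 pairs in place of 44 were called, since fewer pairs were tested. With both strands in the total, levels fell, that of Mir144 to 5498 CPM. No paired analysis was possible because there was only 1 group.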
